A study of Homo sapiens with 13 samples.

Results

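Members of the MAGE (melanoma antigen) gene family were followed through tumours grown from 1 human breast cancer cell line. The 7 genes, taken by symbol from a given list, were MAGEC1, MAGEC2, MAGEC3, MAGEA6, MAGEA12, MAGEB1 and MAGEH1. All 7 were in the bulk table of 57820 gene identifiers, and 4 of them (MAGEC1, MAGEC2, MAGEA6 and MAGEH1) were in the single-cell table of 15005 genes. MAGEC3, MAGEA12 and MAGEB1 were not in that table, in which every gene had a count in at least 20 cells. The list was drawn up with the difference between the bulk arms known, so the bulk values of these 7 genes are a description and carry no test.

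The tumours were grown from BM1, a derivative of the mesenchymal-like breast cancer line MDA-MB-231, after orthotopic injection of 1000000 cells into mammary fat pads of nude (athymic) mice. The bulk arms were 5 KMT5C tumours, from cells selected after lentiviral transduction with human KMT5C, a histone methyltransferase, and 5 CTRL tumours, from cells with the pLV-EF1a-IRES-Hygro vector, all collected after 4 weeks. The single-cell arms were 3 RKIP tumours, from BM1 cells carrying a serine-to-glutamate mutant of RKIP (the Raf kinase inhibitor protein), and 3 CTRL tumours of vector control cells. Each of 3 replicate experiments gave 1 tumour of each arm after 3 weeks, and tumour cells were dissociated, depleted of mouse cells, cleared of dead cells and processed on a Fluidigm C1 system. The age of the mice was not given in the labels, and the mice lack mature T cells.

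MAGE proteins share a domain through which many of them bind RING ubiquitin ligases and change what those ligases act on. The MAGEA, MAGEB and MAGEC genes lie on the X chromosome, are mostly silent in adult tissues other than testis, and are switched on in many tumours, often where promoter DNA methylation is lost. They are called cancer-testis genes, and several of their products are antigens seen by T cells. MAGEH1 belongs to the other branch of the family, with the MAGED, MAGEE and MAGEF genes, whose members are expressed in many tissues, so that the name cancer-testis gene covers 6 of the 7 genes here. Of 8 germ cell markers in the bulk tumours, 2 (PRM2 and TNP1) were at 0 in every library, and the markers together summed to 0.682 to 1.67 CPM (counts per 1000000 counts of the scaled library) in KMT5C tumours and 0.798 to 1.48 CPM in CTRL tumours.

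Bulk libraries held 37050750 to 49536763 counts in KMT5C tumours and 41665268 to 48003278 counts in CTRL tumours. Single-cell tumours held 256 to 274 cells in the RKIP arm and 247 to 267 cells in the CTRL arm, with 19516061 to 34568923 counts per tumour. KMT5C averaged 122.9 ± 20.2 CPM in KMT5C tumours and 8.86 ± 1.52 CPM in CTRL tumours (SD, n = 5 each). The single-cell table has an entry named for rat Pebp1, the gene of RKIP, which stood at 11.9, 205.2 and 126 CPM in RKIP tumours 1, 2 and 3, against 0, 0.608 and 0.295 CPM in CTRL tumours 1, 2 and 3. Skeletal muscle markers summed to 33.8 to 62.9 CPM in KMT5C tumours and 20.7 to 29.8 CPM in CTRL tumours, and 6 of 11 tested were higher in KMT5C tumours. Leukocyte markers summed to 93.9 to 123 CPM in KMT5C tumours and 125 to 173 CPM in CTRL tumours, with 1 of 4 tested lower, and endothelial markers to 41.4 to 66.3 CPM in KMT5C tumours and 57.9 to 84.2 CPM in CTRL tumours, with 1 of 6 lower. Fewer of these markers were in the single-cell table, from tumours depleted of mouse cells. In CTRL tumours there, 2 leukocyte markers summed to 83.9 to 128 CPM, 2 muscle markers to 9.52 to 22.8 CPM and 3 endothelial markers to 17.9 to 30.9 CPM. Whether such counts came from mouse host cells or from tumour cells was not tested, nor was their part in the results. Markers of a mesenchymal-like breast cancer line, such as VIM and CD44, summed to 8320 to 11600 CPM in KMT5C tumours and 7960 to 10100 CPM in CTRL tumours.

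Promoters are shown first, as a description, and no link between their letters and the bulk levels was tested. RefSeq promoter sequences (GRCh38.p14, 250 bases before to 50 after a start) were found for 6 of the 7 genes, and each is given 5′ to 3′ on the strand of its gene. MAGEH1 had no entry. Capitals mark CCGGATGTG and GCCATCTTG, which were picked after reading the promoters.
MAGEC1 chrX:141903644-141903943 (plus strand): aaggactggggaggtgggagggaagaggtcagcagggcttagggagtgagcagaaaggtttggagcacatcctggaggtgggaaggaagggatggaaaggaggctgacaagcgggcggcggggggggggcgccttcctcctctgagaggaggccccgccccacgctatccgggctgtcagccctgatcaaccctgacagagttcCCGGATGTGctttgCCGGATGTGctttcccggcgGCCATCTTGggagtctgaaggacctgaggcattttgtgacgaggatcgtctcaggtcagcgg
MAGEC2 chrX:142205241-142205540 (minus strand): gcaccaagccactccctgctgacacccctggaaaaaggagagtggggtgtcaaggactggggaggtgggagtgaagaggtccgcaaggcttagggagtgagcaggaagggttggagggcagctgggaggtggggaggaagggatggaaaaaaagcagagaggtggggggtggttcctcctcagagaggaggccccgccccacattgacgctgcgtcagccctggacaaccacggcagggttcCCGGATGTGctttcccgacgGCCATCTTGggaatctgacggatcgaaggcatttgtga
MAGEA12 chrX:152733612-152733911 (plus strand): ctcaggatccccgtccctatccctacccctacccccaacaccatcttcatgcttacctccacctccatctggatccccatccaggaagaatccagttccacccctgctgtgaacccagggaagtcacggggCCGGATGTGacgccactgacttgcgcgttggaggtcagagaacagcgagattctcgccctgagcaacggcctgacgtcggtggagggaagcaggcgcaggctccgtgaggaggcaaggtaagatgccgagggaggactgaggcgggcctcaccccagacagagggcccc
MAGEB1 chrX:30246896-30247195 (plus strand): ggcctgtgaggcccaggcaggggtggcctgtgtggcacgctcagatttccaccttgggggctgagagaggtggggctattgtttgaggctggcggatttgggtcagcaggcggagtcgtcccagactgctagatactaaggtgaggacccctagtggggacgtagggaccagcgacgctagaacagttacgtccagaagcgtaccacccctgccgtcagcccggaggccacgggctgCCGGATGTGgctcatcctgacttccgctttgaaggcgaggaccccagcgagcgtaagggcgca
MAGEA6 chrX:152769640-152769939 (minus strand): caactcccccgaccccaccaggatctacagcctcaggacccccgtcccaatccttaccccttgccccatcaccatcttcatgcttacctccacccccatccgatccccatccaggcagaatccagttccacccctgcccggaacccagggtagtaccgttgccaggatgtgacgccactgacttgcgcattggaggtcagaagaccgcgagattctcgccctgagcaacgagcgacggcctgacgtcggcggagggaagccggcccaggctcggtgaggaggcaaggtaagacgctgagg
MAGEC3 chrX:141894416-141894715 (plus strand): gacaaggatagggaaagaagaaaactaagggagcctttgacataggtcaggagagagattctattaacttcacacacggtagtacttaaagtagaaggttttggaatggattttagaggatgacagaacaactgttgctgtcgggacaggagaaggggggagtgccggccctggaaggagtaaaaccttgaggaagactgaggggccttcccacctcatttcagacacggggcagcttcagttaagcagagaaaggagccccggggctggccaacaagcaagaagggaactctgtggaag

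MAGEC1 holds CCGGATGTG at 2 places and GCCATCTTG at 1, and MAGEC2 holds each at 1 place. MAGEA12 and MAGEB1 hold CCGGATGTG at 1 place in the promoters shown, and those of MAGEA6 and MAGEC3 hold neither in exact letters. The annotated MAGEC3 gene runs from 141838316 to 141897832 on the plus strand, so its promoter shown, from 141894416 to 141894715, lies inside the gene. The annotated start of MAGEC3 had no promoter entry, so the letters and CpG dinucleotides there were not searched. MAGEA6 has caggatgtg, which differs from CCGGATGTG at 1 base, and the same letters acgccactgacttgcgc follow in MAGEA6 and MAGEA12. Another MAGEB1 start in the table, with 1 CpG in its promoter against 18 in the one shown, holds neither motif. Searched on both strands, CCGGATGTG occurred in 119 of 35116 promoters (0.339%) and GCCATCTTG in 497 (1.42%). The motifs do not overlap each other in letters, and 10 promoters held both. Among 34 MAGE family genes with a promoter, 11 held CCGGATGTG and 2, MAGEC1 and MAGEC2, held GCCATCTTG. The promoters of MAGEC1, MAGEC2, MAGEC3, MAGEA6, MAGEA12 and MAGEB1 shown had 14, 10, 5, 19, 15 and 18 CpG dinucleotides in 300 bases, beside a median of 14 over all promoters. The MAGEA3 promoter differed from that of MAGEA6 at 0 bases.

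In bulk tumours, the 3 MAGEC genes, MAGEA12, MAGEB1 and MAGEH1 had lower mean levels in KMT5C tumours than in CTRL tumours, and MAGEA6 had a higher one. The arms did not overlap for 5 of the 6 lower genes and for MAGEA6. Over all 17947 genes tested, the arms did not overlap with KMT5C lower in 3.26% and with KMT5C higher in 2.44%. By the edgeR quasi-likelihood test at an adjusted p of 0.05, 1.90% of all genes were called lower and 1.06% higher, and 5 and 1 of the 7 members were among them. Since the list was chosen on this contrast, nothing is read from these counts. The median log2 fold change of the 7 genes was -1.93, beside 0.00 over all genes. In bulk tissue, fewer cells expressing a gene and less RNA per cell cannot be told apart.

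MAGEC1 encodes a large cancer-testis antigen found in myeloma and other tumours, and lies next to MAGEC2 and MAGEC3 on the long arm of X. It had 4.16, 3.85, 3.55, 5.75 and 2.92 CPM in KMT5C tumours 807, 809, 816, 820 and 823, against 21.9, 19.8, 24.4, 17.2 and 29.7 CPM in CTRL tumours 801, 803, 804, 813 and 815. Every KMT5C tumour lay far below every CTRL tumour, and the highest KMT5C value was that of tumour 820. The means were 4.05 ± 1.06 CPM in KMT5C tumours and 22.6 ± 4.75 CPM in CTRL tumours (SD, n = 5 each), a log2 fold change of -2.48 (SE 0.17). Of the 17947 genes tested, 6 had a lower log2 fold change.

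MAGEC2, whose product binds the ubiquitin ligase and corepressor TRIM28, had 3.62, 1.86, 2.91, 2.50 and 2.37 CPM in KMT5C tumours 807, 809, 816, 820 and 823. It had 12.5, 11.6, 17.5, 9.90 and 14.5 CPM in CTRL tumours 801, 803, 804, 813 and 815. The arms were again apart, and CTRL tumour 813 was the lowest of its arm, as it was for MAGEC1. The log2 fold change was -2.31 (SE 0.18), from means of 2.65 ± 0.658 CPM in KMT5C tumours and 13.2 ± 2.92 CPM in CTRL tumours (SD, n = 5 each). A lower log2 fold change was found for 13 genes.

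MAGEC3, the third gene of the cluster, had low counts, 8 to 37 counts per library in KMT5C tumours and 18 to 51 counts in CTRL tumours. Its levels were 0.323, 0.219, 0.436, 0.765 and 0.209 CPM in KMT5C tumours 807, 809, 816, 820 and 823. In CTRL tumours 801, 803, 804, 813 and 815 they were 0.934, 0.845, 1.11, 0.410 and 0.739 CPM. The arms overlapped through 2 libraries, KMT5C tumour 820, the highest of its arm, and CTRL tumour 813, the lowest. The log2 fold change was -1.02 (SE 0.35). It was -1.42 (SE 0.33) without KMT5C tumour 820 and -1.03 (SE 0.30) with no filter on low counts.

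MAGEA6 encodes a cancer-testis antigen that, with the near-identical MAGEA3, binds TRIM28 and directs it to the kinase AMPK. It was the most abundant of the 7 genes per exon length, and its direction was opposite to that of the others. It had 51.7, 49.8, 52.0, 57.8 and 66.7 CPM in KMT5C tumours 807, 809, 816, 820 and 823, against 42.4, 38.9, 44.5, 41.5 and 44.3 CPM in CTRL tumours 801, 803, 804, 813 and 815. The lowest KMT5C tumour was above the highest CTRL tumour, by less than the range within either arm. The log2 fold change was 0.39 (SE 0.08), from 55.6 ± 6.90 CPM in KMT5C tumours and 42.3 ± 2.29 CPM in CTRL tumours (SD, n = 5 each). MAGEA6 made up 82.8 to 90.1% of the counts of the 7 genes in KMT5C tumours and 46.0 to 54.7% in CTRL tumours. In GENCODE 29 transcripts, 53.9% of its stretches of 50 bases occur in another gene, mostly in MAGEA3, so how reads were divided between the pair is uncertain. With 1 tumour left out at a time, its log2 fold change lay between 0.31 and 0.44.

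MAGEA12, an X-linked gene of the MAGEA cluster that encodes a cancer-testis antigen, had 0.366, 0.519, 0.249, 0.641 and 0.278 CPM in KMT5C tumours 807, 809, 816, 820 and 823. It had 1.99, 1.21, 1.48, 1.87 and 1.27 CPM in CTRL tumours 801, 803, 804, 813 and 815. All KMT5C tumours were below all CTRL tumours, and the log2 fold change was -1.93 (SE 0.27). MAGEA12 thus lay on the other side of 0 from MAGEA6, its neighbour in the same cluster. CSAG4 overlaps MAGEA12 on the same strand, and 13.8% of the 50-base stretches of MAGEA12 occur in another gene, most often MAGEA2, so part of its reads could not be assigned with certainty.

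MAGEB1, from the MAGEB cluster on the short arm of X, had 0.323, 0.109, 0.249, 0.145 and 0.162 CPM in KMT5C tumours 807, 809, 816, 820 and 823, which were 4 to 15 counts per library. It had 0.731, 0.759, 0.869, 0.593 and 1.11 CPM in CTRL tumours 801, 803, 804, 813 and 815, which were 26 to 48 counts. Its arms did not overlap, and the log2 fold change was -2.0 (SE 0.31). MAGEB4 overlaps it on the same strand and was at 0 in every bulk library.

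MAGEH1, the broadly expressed member, had 1.92, 1.20, 1.68, 1.41 and 1.42 CPM in KMT5C tumours 807, 809, 816, 820 and 823, against 4.47, 6.59, 5.93, 4.33 and 4.78 CPM in CTRL tumours 801, 803, 804, 813 and 815. The arms were apart, with a log2 fold change of -1.77 (SE 0.16). None of its 50-base stretches occurs in another gene.

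**Figure D1:**
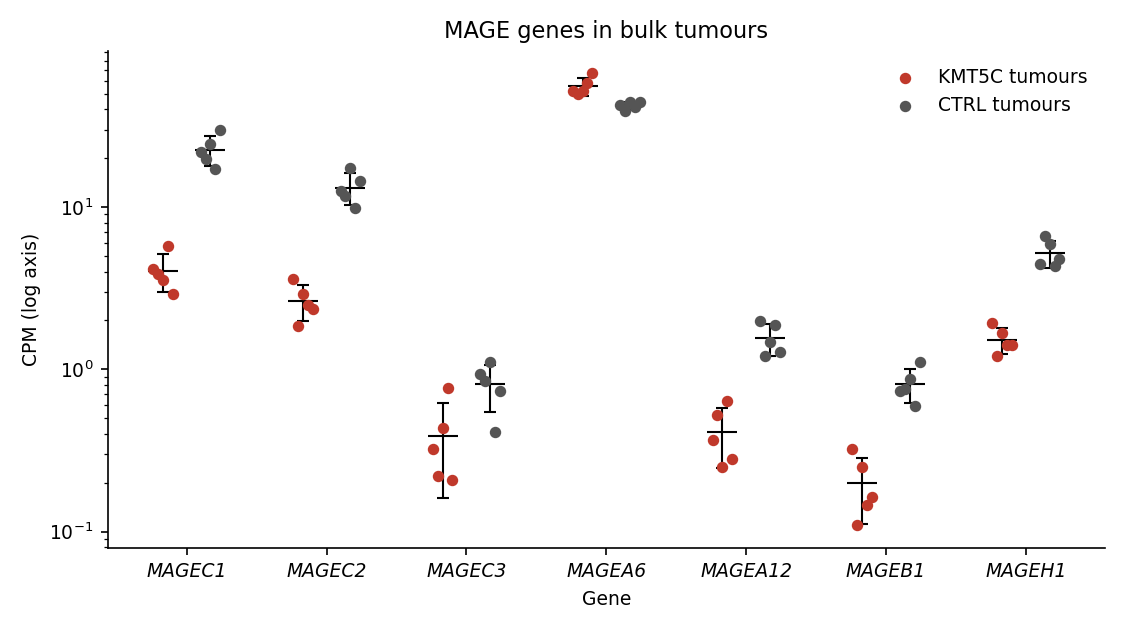
Level of each MAGE gene in every bulk tumour, in CPM on a log axis; points are tumours (5 KMT5C in red, 5 CTRL in grey), bars the mean and SD. The arms are apart for every gene except MAGEC3, and MAGEA6 alone of the 7 is higher in the KMT5C tumours.

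Per kilobase of exon, the order of levels in KMT5C tumours was MAGEA6 (29.8 CPM per kb), MAGEC2 (1.33), MAGEH1 (1.04), MAGEC1 (0.947), MAGEA12 (0.211), MAGEC3 (0.141) and MAGEB1 (0.100). In CTRL tumours it was MAGEA6 (22.7 CPM per kb), MAGEC2 (6.63), MAGEC1 (5.29), MAGEH1 (3.57), MAGEA12 (0.805), MAGEB1 (0.412) and MAGEC3 (0.292). Neighbours in this order whose means ± SD overlapped were MAGEC2, MAGEH1 and MAGEC1, and MAGEA12, MAGEC3 and MAGEB1, in KMT5C tumours. In CTRL tumours they were MAGEC2 with MAGEC1, MAGEC1 with MAGEH1, and MAGEB1 with MAGEC3. MAGEA6 stood above every other member in both arms.

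Muscle markers moved with the bulk arms, at a mean log2 CPM of 1.28 to 2.07 in KMT5C tumours and 0.609 to 1.25 in CTRL tumours. With that level as a covariate, the log2 fold changes were -2.40 (SE 0.30) for MAGEC1, -1.86 (SE 0.25) for MAGEC2, -1.18 (SE 0.63) for MAGEC3, 0.43 (SE 0.14) for MAGEA6, -2.65 (SE 0.40) for MAGEA12, -1.09 (SE 0.40) for MAGEB1 and -1.51 (SE 0.26) for MAGEH1. MAGEB1 thus moved toward 0 and MAGEA12 away from it by over 1.5 times in fold, and the directions did not turn. Without the 2 KMT5C tumours highest in muscle markers, 809 and 820, the log2 fold changes were -2.67 for MAGEC1, -2.15 for MAGEC2, -1.31 for MAGEC3, 0.42 for MAGEA6, -2.38 for MAGEA12, -1.71 for MAGEB1 and -1.64 for MAGEH1. The directions of all 7 genes were the same under every alternative run, which is no separate support, as the genes were listed with this contrast known.

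**Figure D2:**
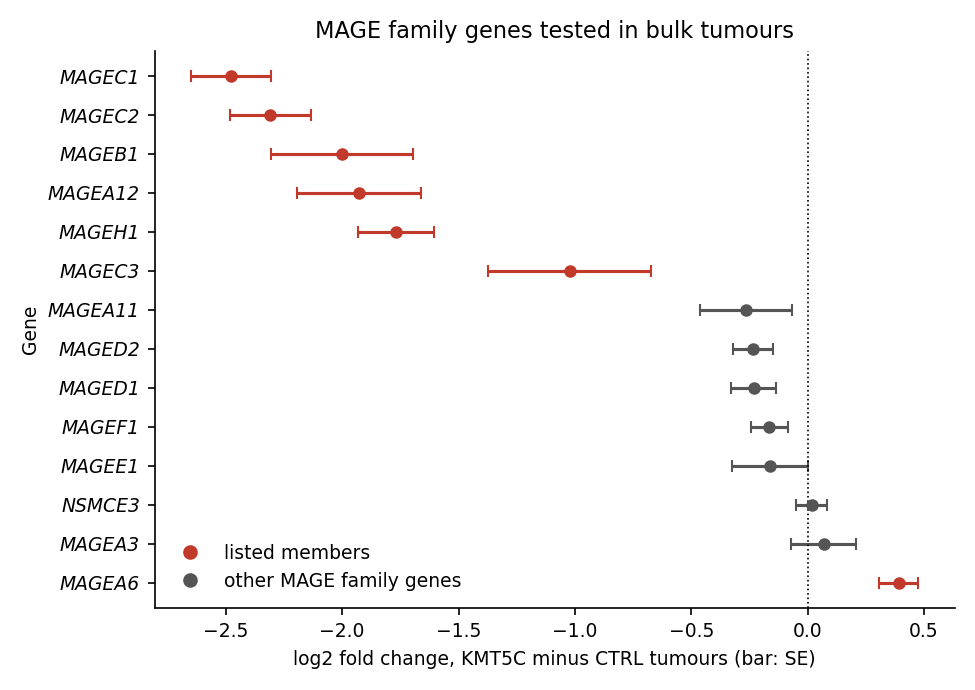
Difference between KMT5C and CTRL tumours, as log2 fold change, for the 14 MAGE family genes tested in bulk, with SE bars; the 7 listed genes in red, the other 7 in grey. The other genes lie between -0.26 and 0.07, while MAGEC1, MAGEC2, MAGEB1, MAGEA12 and MAGEH1 lie at -1.77 or lower. The 7 genes were listed with this contrast known.

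None of the other MAGE genes passed the same test. Since the 7 genes were listed with this contrast known, the lack of calls among the rest is no separate result. Of 7 tested, 0 were called by edgeR or by DESeq2, 2 (MAGED1 and MAGED2) had an unadjusted p under 0.05, and their median log2 fold change was -0.16. They were MAGEA3, MAGEA11, MAGED1, MAGED2, MAGEE1, MAGEF1 and NSMCE3, and 5 of the 7 had a log2 fold change below 0. MAGEA3 averaged 4.23 CPM in KMT5C tumours and 4.03 CPM in CTRL tumours, a log2 fold change of 0.07 (SE 0.14, edgeR adjusted p = 0.86). MAGEA11, an androgen receptor coregulator whose promoter also holds CCGGATGTG, averaged 4.56 CPM in KMT5C tumours and 5.50 CPM in CTRL tumours (edgeR adjusted p = 0.551 at a log2 fold change of -0.26, SE 0.20). MAGED2, a broadly expressed gene mutated in a transient form of Bartter syndrome, was the most abundant of them, at 191.4 CPM in KMT5C tumours and 225.2 CPM in CTRL tumours. Its log2 fold change was -0.23 (SE 0.08, edgeR adjusted p = 0.161). NSMCE3, a MAGE subunit of the SMC5/6 complex, differed by 0.02 on the log2 scale (SE 0.07, edgeR adjusted p = 0.932).

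The remaining MAGE family genes had too few counts to be tested. Of 23 such genes, 5 (MAGEA4, MAGEA9, MAGEB4, MAGEB5 and MAGEL2) had no count in any tumour. Of the 18 others, 17 had fewer counts in the KMT5C tumours than in the CTRL tumours, and 10 of those had 0 counts in all KMT5C tumours. NDN was the exception, with 21 counts in KMT5C tumours and 19 counts in CTRL tumours. Summed over these genes, the 5 KMT5C tumours held 49 counts and the 5 CTRL tumours held 144 counts. MAGEB16 had 0 counts over the KMT5C tumours and 18 counts over the CTRL tumours, in 4 of 5 CTRL libraries. MAGEA1 had 6 counts over the KMT5C tumours, all in tumour 807, and 26 counts over the CTRL tumours. These sums were not tested, and counts this low do not resolve single genes. The matching shares over all genes with so few counts were not computed, so nothing is read from these numbers about the family.

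All 7 members lie on the X chromosome, where 35 of 577 genes tested (6.07%) were called lower in KMT5C tumours and 4 (0.693%) higher, these members included. Around the MAGEC cluster, 6 neighbouring protein-coding genes other than MAGEC2 were tested, and 2 were lower. SPANXC, a sperm protein gene of a cancer-testis family with near-identical copies, averaged 4.12 CPM in KMT5C tumours and 17.1 CPM in CTRL tumours (edgeR adjusted p = 4.6e-05 at a log2 fold change of -2.05, SE 0.20). SPANXD averaged 3.37 CPM in KMT5C tumours and 8.38 CPM in CTRL tumours (edgeR adjusted p = 0.00208 at a log2 fold change of -1.31, SE 0.21). Reads of these copies may be divided between them. In CTRL tumours, SPANXC averaged 17.1 CPM in bulk and 354.9 CPM in single cells, and SPANXD 8.38 and 144.8 CPM. SPANXB1 averaged 0.534 CPM in bulk CTRL tumours and 10090 CPM in single-cell CTRL tumours. The bulk values of these copies are thus uncertain, and the cause of the gap was not tested. LDOC1 had a log2 fold change of -0.36 (edgeR adjusted p = 0.118), FMR1 had -0.03 and SPANXB1 had 0.21, none of which passed.

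Few of the genes that act with MAGE proteins or in DNA methylation came near the threshold. Of 10 tested genes for ubiquitin ligases and related partners of MAGE proteins, 0 passed by edgeR or DESeq2 and 1 (PJA1) had an unadjusted p under 0.05, with a median log2 fold change of 0.00. TRIM28 averaged 587.5 CPM in KMT5C tumours and 593.4 CPM in CTRL tumours (edgeR adjusted p = 0.955 at a log2 fold change of -0.01, SE 0.08). The list ran from LNX1 at -0.20 to PJA1 at 0.17. Of 24 tested genes for DNA methylation and heterochromatin, 0 passed by edgeR, 1 (MBD1) passed by DESeq2 and had an unadjusted edgeR p under 0.05, with a median of 0.00. The DNA methyltransferase DNMT1 had a log2 fold change of 0.16 (edgeR adjusted p = 0.392), and the list ran from DNMT3A at -0.20 to the demethylation enzyme TET1 at 0.28. MBD1, a reader of methylated DNA, had the smallest adjusted p of the list, 0.0749 by edgeR, at a log2 fold change of 0.22. In the single-cell tumours, 0 of 10 and 0 of 25 genes of these lists passed by edgeR or DESeq2, and 1 and 3 had an unadjusted edgeR p under 0.05.

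Within an arm, tumours also varied. Taking each gene's deviation from its arm mean on the log2 scale over the 10 tumours, MAGEC1 had an r of 0.69 with MAGEC3, 0.46 with MAGEB1, 0.43 with MAGEC2, 0.23 with MAGEA12, 0.03 with MAGEH1 and 0.02 with MAGEA6. These values describe 10 libraries that share a cell line and, within an arm, a transduction. The 5 genes most like MAGEC1 by this measure were IFT122P3 (r = 0.95), ZNF530 (0.94), CDCA4 (0.93), TMEM106A (0.92) and STOX2 (0.91). Their log2 fold changes between the arms were 0.04, 0.41, 0.06, -0.13 and -0.40. As the highest r of all tested genes over only 10 libraries, these are not a finding.

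In single cells, the 4 members in the table were found in few cells. To compare tumours at equal counts per cell, each cell with at least 20000 counts was thinned to 20000 counts, which left 241 to 260 cells per RKIP tumour, 237 to 246 cells per CTRL tumour and 87 cells out. Median depth before thinning was 57023 to 90591 counts per cell in RKIP tumours and 55704 to 95289 counts in CTRL tumours. A count of any of the 4 genes was present in 13.1, 18 and 13.7% of cells in RKIP tumours 1, 2 and 3, and in 4.56, 13.4 and 18.6% of cells in CTRL tumours 1, 2 and 3. CTRL tumour 1 stood below the other 5, and the arms overlapped. Thinning did not make the number of detected genes equal. The median number of genes per thinned cell was 2304.5, 3132.5 and 3335 in RKIP tumours 1, 2 and 3, against 2083, 3187.5 and 3299 in CTRL tumours 1, 2 and 3, so that both tumours of experiment 1 were lowest in their arms. PEBP1, the human RKIP gene and broadly expressed, had a count in 80, 91.4 and 88.8% of thinned cells in RKIP tumours 1, 2 and 3, against 76.8, 93.5 and 89.5% in CTRL tumours 1, 2 and 3. The part of this in the low shares of CTRL tumour 1 was not tested.

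MAGEC2 was the member found most often. It had a count in 6.15, 8.20 and 4.56% of thinned cells in RKIP tumours 1, 2 and 3, against 2.49, 6.10 and 9.70% in CTRL tumours 1, 2 and 3. The exact 95% binomial intervals ran from 2.30 to 8.02% for the lowest RKIP tumour and from 6.25 to 14.2% for the highest CTRL tumour. RKIP was the higher arm in experiments 1 and 2 and the lower one in experiment 3. Without thinning, the shares were 10.2, 16.1 and 14.5% in RKIP tumours and 5.67, 12 and 16.3% in CTRL tumours 1, 2 and 3.

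MAGEC1 had a count in 3.46, 4.30 and 2.07% of thinned cells in RKIP tumours 1, 2 and 3, and in 0.415, 3.66 and 5.06% in CTRL tumours 1, 2 and 3. It followed the same order of experiments as MAGEC2. In CTRL tumour 1, 40 of its 42 unthinned counts came from 1 cell, and in CTRL tumour 2 the top cell held 52.3% of the counts, so that summed levels rested on few cells. Without thinning, the shares were 4.89, 9.49 and 6.25% in RKIP tumours and 1.21, 5.62 and 10.1% in CTRL tumours 1, 2 and 3.

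MAGEA6 had a count in 3.46, 5.86 and 3.73% of thinned cells in RKIP tumours 1, 2 and 3, and in 0.830, 2.85 and 2.95% in CTRL tumours 1, 2 and 3. RKIP was higher in 3 of 3 experiments, by a mean of 2.14 percentage points (SD 1.19), with a two-sided exact sign-flip p of 0.25 and 1.0 after adjustment over the 4 genes. A p of 0.25 is the smallest that this test allows with 3 pairs, so it cannot pass 0.05. The share of thinned cells with MAGEA6 was below that with MAGEC2 in 6 of 6 tumours. This measure is unlike the bulk level per exon length, by which MAGEA6 was the highest member. Summed over cells, MAGEA6 and MAGEC2 averaged 6.76 and 5.57 CPM in RKIP tumours, and 4.57 and 6.01 CPM in CTRL tumours.

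MAGEH1 had a count in 0.385, 0.781 and 3.73% of thinned cells in RKIP tumours 1, 2 and 3, and in 0.830, 2.44 and 2.53% in CTRL tumours 1, 2 and 3. Most of its RKIP cells came from tumour 3, with 9 of 241 thinned cells there, while all 16 unthinned counts of RKIP tumour 1 came from 1 cell. The arms overlapped.

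**Figure D3:**
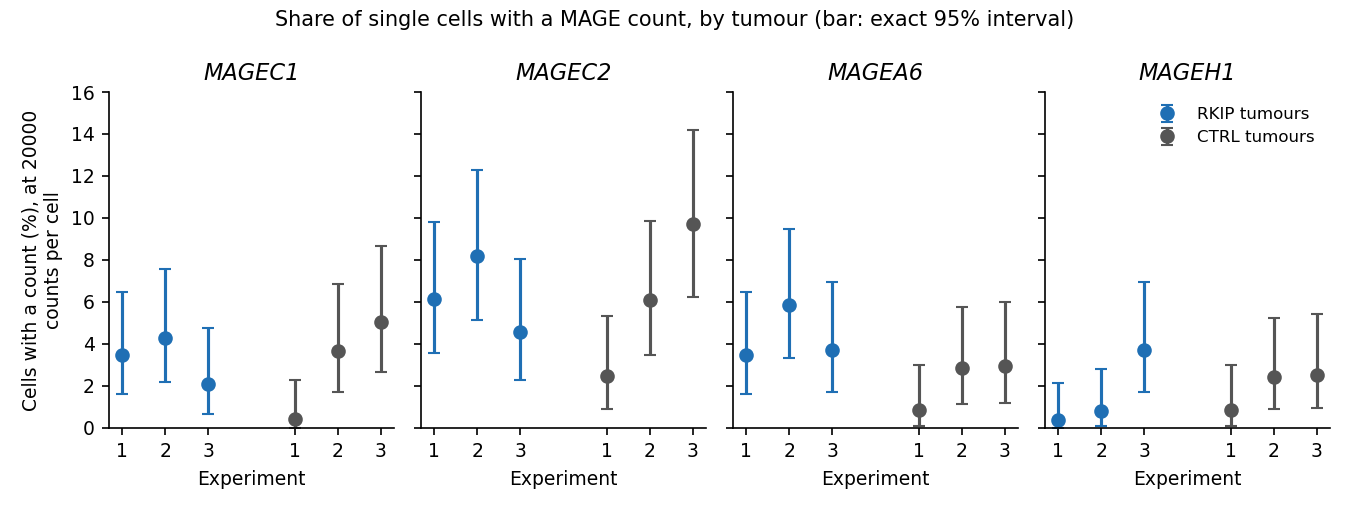
Percent of thinned cells with at least 1 count of each MAGE gene, by tumour (RKIP in blue, CTRL in grey; x axis, replicate experiment), with exact 95% binomial intervals that cover counting error only. Within each experiment the intervals of the 2 arms overlap for each gene, and CTRL tumour 1 has the lowest share of MAGEC1, MAGEC2 and MAGEA6.

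Summed over the cells of each tumour, none of the 4 genes differed between the arms by the edgeR test, which called 0.00688% of the 14528 genes tested, namely the rat Pebp1 entry. Unadjusted, 582 genes had a p under 0.05, and 0 of the 4 were among them. DESeq2 called 0 of the 4 and gave MAGEH1 no adjusted p. MAGEC1 averaged 2.61 ± 1.05 CPM in RKIP tumours and 3.90 ± 2.57 CPM in CTRL tumours (SD, n = 3 each), with an edgeR log2 fold change of -0.41 (SE 0.69, adjusted p = 0.982). MAGEC2 averaged 5.57 ± 1.66 CPM in RKIP tumours and 6.01 ± 2.22 CPM in CTRL tumours, with an edgeR log2 fold change of -0.08 (SE 0.62, adjusted p = 0.995). MAGEA6 averaged 6.76 ± 5.0 CPM in RKIP tumours and 4.57 ± 3.59 CPM in CTRL tumours, with an edgeR log2 fold change of 0.92 (SE 0.65, adjusted p = 0.973). MAGEH1 averaged 1.02 ± 1.29 CPM in RKIP tumours and 1.49 ± 0.942 CPM in CTRL tumours, with an edgeR log2 fold change of -1.05 (SE 1.34, adjusted p = 0.973). With SE of 0.62 to 1.34 on the log2 scale, a p above the threshold does not show that the arms were alike.

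Other MAGE genes were found in the single-cell table too, and 0 of the 6 tested passed by edgeR or DESeq2 or had an unadjusted edgeR p under 0.05. MAGED2 was in 52.3, 62.5 and 67.2% of thinned cells in RKIP tumours 1, 2 and 3, and in 49.0, 72.0 and 66.2% in CTRL tumours 1, 2 and 3. MAGEA3, near-identical to MAGEA6, was in 0.385, 0.391 and 0.415% of thinned cells in RKIP tumours 1, 2 and 3, and in 0, 0.813 and 0.422% in CTRL tumours 1, 2 and 3; the 0 of 241 cells allows a share of cells with a count of up to 1.24%. MAGEA11 was at 7.62, 5.88 and 3.54 CPM in RKIP tumours 1, 2 and 3, against 0.938, 0.608 and 3.43 CPM in CTRL tumours 1, 2 and 3. It was higher in RKIP tumours in 3 of 3 experiments, at an edgeR log2 fold change of 2.16 (SE 0.97, adjusted p = 0.973), which did not pass. Of its unthinned counts, 1 cell held 142 of 254 in RKIP tumour 1, and 1 cell held 58 of 93 in CTRL tumour 3. MAGEA11 was in 2.31, 4.30 and 4.98% of thinned cells in RKIP tumours 1, 2 and 3, against 1.24, 2.03 and 2.11% in CTRL tumours 1, 2 and 3. MAGEF1, a broadly expressed member of the family, was at 10.8, 13.7 and 15.6 CPM in RKIP tumours 1, 2 and 3, against 15.2, 14.7 and 22.7 CPM in CTRL tumours 1, 2 and 3. It was lower in RKIP tumours in 3 of 3 experiments, and its edgeR log2 fold change of -0.38 (SE 0.34, adjusted p = 0.973) did not pass.

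Few cells held counts of more than 1 member. Of 1481 thinned cells, 188 held a count of 1 member, 13 held 2 and 0 held more, which at this thinned depth allows a share of up to 0.203% for cells with a count of 3 or 4 members. Without thinning, 325 of 1568 cells held 1 member, 57 held 2 and 3 held 3, so that 24.6% held any. Summed over all pairs, joint finds numbered 13 in thinned cells, beside 11.9 given by the products of the shares within each tumour. Without thinning they numbered 66, beside 49.4.

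MAGEC1 and MAGEC2, neighbours on the X chromosome, were the pair found together most often. In thinned cells, 7 cells held both, beside 3.42 given by the product of their shares within each tumour, and the observed number was above that product in 4 of 6 tumours. Of the 47 cells with MAGEC1, 14.9% also held MAGEC2, and of the 92 cells with MAGEC2, 7.61% also held MAGEC1. Without thinning, 29 cells held both against a product of 14, above it in 6 of 6 tumours. Per tumour these were 3, 7 and 4 cells in RKIP tumours 1, 2 and 3, beside products of 1.32, 4.18 and 2.31, and 2, 4 and 9 cells in CTRL tumours 1, 2 and 3, beside products of 0.170, 1.80 and 4.23. Depth moved with this: unthinned cells with MAGEC2 had a higher median depth than those without it in 6 of 6 tumours, for example 101200 against 67015 counts in RKIP tumour 3 and 101268 against 64702.5 counts in CTRL tumour 3. In the thinned cells, at equal counts per cell, the pair rested on 7 cells.

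The other pairs had fewer cells with both genes when 1 count of each sufficed. MAGEC2 and MAGEA6 were together in 5 thinned cells, beside 3.35, and in 17 unthinned cells, beside 15.1. MAGEC1 and MAGEA6 were together in 1 thinned cell, beside 1.76, and in 8 unthinned cells, beside 7.74. MAGEH1 shared 0 thinned cells with any of the other 3, where the products were 0.839 with MAGEC1, 1.63 with MAGEC2 and 0.852 with MAGEA6. Without thinning it shared 1 cell with MAGEC1, 5 with MAGEC2 and 6 with MAGEA6, beside products of 2.95, 5.92 and 3.74. Requiring 2 counts of each gene left 1 thinned cell with MAGEC1 and MAGEC2, beside a product of 0.594, and 2 with MAGEC2 and MAGEA6, beside 0.710.

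**Figure D4:**
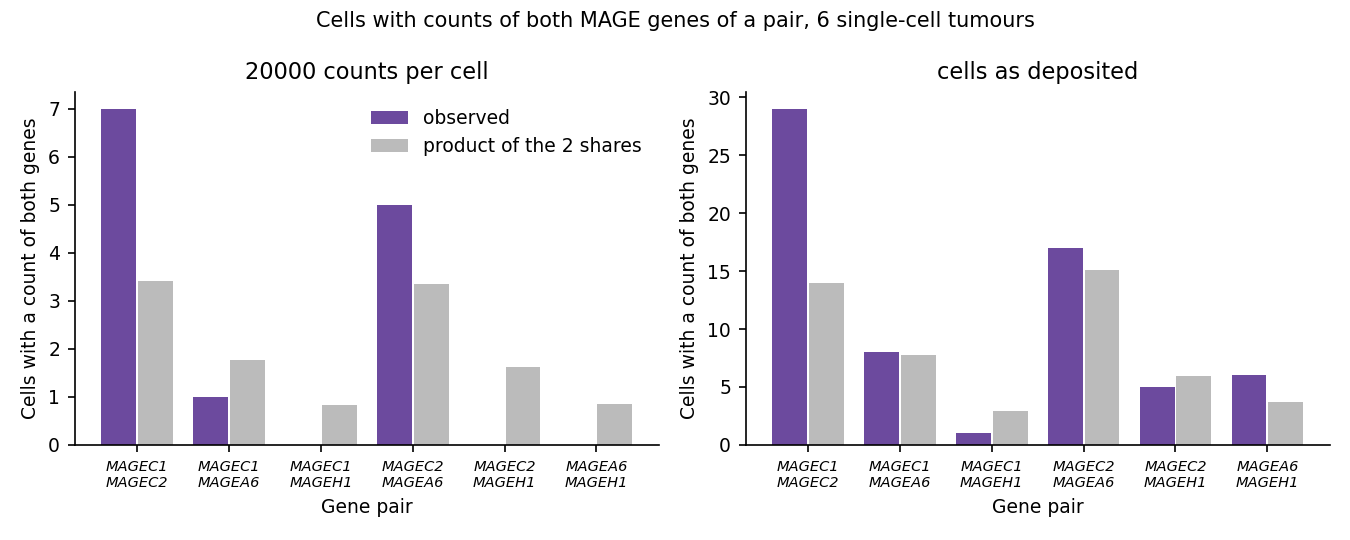
Number of cells with a count of both genes of a pair (purple), beside the product of the shares of the 2 genes within each tumour, summed over the 6 tumours (grey), in cells thinned to 20000 counts and in cells as deposited. MAGEC1 with MAGEC2 has 7 cells beside 3.42 when thinned and 29 beside 14 as deposited.

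Correlations within tumours were near 0. The mean of the within-tumour r of log counts in thinned cells was 0.04 for MAGEC1 and MAGEC2, between -0.03 and 0.17 over the 6 tumours, and 0.04 for MAGEC2 and MAGEA6. The 5 genes most like MAGEC2 by this measure were AL353753.1, ZNF284, ANKRD46, IL7R and MATR3.1, with mean r of 0.14 to 0.16, too weak in sparse counts to be a finding. Within RKIP tumours 2 and 3, MAGEC2 had a count in 9.76 and 6.86% of thinned cells with a rat Pebp1 count, and in 7.47 and 2.88% of those without one. For MAGEC1 the shares were 3.66 and 1.96% with a rat Pebp1 count and 4.6 and 2.16% without one, and for MAGEA6 they were 3.66 and 3.92% with one and 6.9 and 3.6% without one. MAGEH1 had 0 and 4.90% with one and 1.15 and 2.88% without one. Each of these shares in RKIP tumours 2 and 3 rested on 0 to 13 cells with a member. At this depth a cell without a rat Pebp1 count need not lack the gene, so no direction is read from the shares. In RKIP tumour 1, 10 thinned cells held a rat Pebp1 count and 0 of them a count of a member.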

How the data were processed

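The authors deposited whole-number raw counts, per gene and tumour for bulk libraries and per gene and cell for single cells. The submitters' processing notes name Trim Galore, STAR and featureCounts, without versions, and the builds hg38 and hg19, without their roles. The strand setting, removal of mouse reads and use of molecular identifiers are not given in the sources used here.

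Bulk counts were tested with edgeR 4.0.16 (R 4.3.3; filterByExpr, TMM, robust quasi-likelihood F test), and counts of single cells, added up within each tumour, in the same way with the replicate experiment as a block. P-values were two-sided and Benjamini-Hochberg adjusted over all genes tested, with a threshold of 0.05. SE came from the F statistic, and CPM used TMM-scaled libraries. Identifiers without a symbol, 0.664% of bulk counts, were kept. 1 cell with fewer than 1000 detected genes was left out, and no doublet caller was run. Cells were thinned without replacement (seed 1) for shares, whose Clopper-Pearson intervals and floors (3 counts) cover counting error only.

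The start of a cell's column name gave its arm and the ending its tumour, and RKIP and CTRL cells with the same ending were taken as 1 experiment; the numbers 1 to 3 are arbitrary. No source used here states this pairing. The deviations of RKIP and CTRL tumours of the same ending correlated at 0.161, 0.0434 and 0.158, and those of different endings at -0.148 to 0.0245. Within an arm, 551 chip positions occurred in more than 1 tumour, and 0 cells had identical counts. Bulk libraries were no copies of each other (smallest chi-square per degree of freedom 6.71). Labels do not say whether cultures were separate, so p-values measure the spread between these tumours.

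The members and all gene lists were chosen with earlier results of these data known. Named are the members, the tested MAGE family genes, the called and extreme genes of each list, the tested neighbours (1 of which is not reported here), and the 5 genes of highest likeness; TRIM28, DNMT1, MBD1, MAGEB16, MAGEA1 and NDN were named after their values were seen. A table of current gene names gave symbols for 51996 of the 57820 bulk identifiers, and GENCODE 29, which held 52338 of them, gave chromosomes, exon lengths and shared stretches. Tested on simulated 2-fold changes in the more abundant genes, the bulk fit recovered 98.5% of the changed genes and the single-cell fit 31%. The simulated counts held no differences between experiments. Several members in bulk and every member in single cells were less abundant than those genes, so these rates do not apply to such members. Alternatives were DESeq2 1.42.0, other scalings, filters, covariates and depths, and each replicate left out.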

Additional observations from a re-analysis of the deposited data

How the results depend on the processing

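The number of bulk genes past the threshold was 531. It was 1126 with DESeq2, 801 with no filter on low counts, 27 with muscle marker level as covariate, 166 without the 2 KMT5C tumours highest in muscle markers (chosen after seeing the data), and 337 to 681 with 1 tumour left out, the lowest without KMT5C 820 (337), KMT5C 807 (344) and CTRL 803 (351). The directions of the 7 genes held under each of these, but the calls did not. As these genes were listed with this contrast known, neither is read as support, and the calls are only a description. MAGEA6 was not called without CTRL 803, without KMT5C 820, with the covariate or without the 2 tumours highest in muscle markers. MAGEB1 was not called with the covariate. MAGEC3 was called without KMT5C 820 and with no filter on low counts. MAGEA3 turned to -0.14 with the covariate and to -0.029 without the 2 tumours, and MAGEE1 to 0.11 with the covariate. In single cells, 1 gene passed with the replicate block and 0 without the replicate block. DESeq2 gave 61 genes, thinning before summing gave 2, and leaving out an experiment gave 0 to 1. With an experiment left out, the log2 fold change ran from -0.56 to 0.42 for MAGEC2 (positive without replicate 3), -0.11 to 0.19 for MAGED2 (negative without replicate 3), -2.40 to 0.25 for MAGEH1 (positive without replicate 2) and -2.73 to 1.57 for MAGEE1 (positive without replicates 1 or 2, at 1.57 and 0.76). Thinning before summing turned MAGEC2 to 0.28 and MAGED2 to -0.19, and MAGEE1 was 1.46 without the replicate block. The RKIP minus CTRL difference in the share of cells (percentage points) turned to -0.277 at 40000 counts for MAGEC1, ranged from -1.18 to 1.84 for MAGEC1, -1.52 to 2.88 for MAGEC2 and -1.05 to 0.379 for MAGEH1 when an experiment was left out, with -0.738 for MAGEC2 without replicate 2, and kept its sign for MAGEA6 (1.71 to 2.82). Of the 403 unthinned MAGEE1 counts in RKIP tumour 3, 395 came from 1 cell. None of these single-cell differences had passed a test, and the cause of the changes above was not tested. Depth limits MAGEC3, MAGEA12 and MAGEB1 in bulk and every member in single cells.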
